A study of Mus musculus with 6 samples.

Results

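The genes described here encode 10 integrin subunits, taken from the 55573 genes of the count table by their symbols: Itga2b, whose protein is CD41, Itgb3, Itga2, Itga4, Itga6, Itgb1, Itgb2, Itgam, Itgal and Itgb7. All 10 were found and all 10 were among the 16493 genes that passed the filter on low counts. RNA was sequenced from 3 Abcc4-/- and 3 WT mouse samples, each labelled as megakaryocytes, the marrow cells that shed platelets. Abcc4 encodes a membrane pump that exports cyclic nucleotides and thiopurines, and no treatment is given for these samples. The sample titles carry the name CD41. Strain, age, the design of the deleted allele and the way the cells were obtained are not stated in the labels. Nothing in them says that the samples of a genotype are different mice, so the p-values below reflect sample-to-sample spread that may be technical.

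Integrins are receptors for matrix proteins and for proteins on other cells, each built from an alpha and a beta subunit. The Itga2b and Itgb3 proteins form the fibrinogen receptor of platelets, through which platelets aggregate. The Itgal and Itgam proteins each pair with the Itgb2 protein on leukocytes, while the Itga4, Itga6 and Itga2 proteins pair with the Itgb1 protein on progenitors and many other cells, and the Itga4 protein also pairs with the Itgb7 protein in the gut-homing receptor of lymphocytes.

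Library totals lay between 67009925 and 99294493 counts in Abcc4-/- and between 50440239 and 55123512 counts in WT. Every member had between 480 and 87193 counts in a library, so no member was near the limit of detection. Any pair of libraries differed by more than sampling noise, with a chi-square of 11.6 or more for each degree of freedom. The knocked-out gene itself, Abcc4, stood at 60.1, 60.5 and 62.3 CPM (counts scaled to a common library size after TMM adjustment) in Abcc4-/-, against 74.2, 71.8 and 75.7 CPM in WT. The labels do not say which part of it is deleted, so these values do not check them. Transcripts of megakaryocytes were present in each library, next to much larger amounts of neutrophil transcripts. The summed level of 16 megakaryocyte and platelet genes without integrins was 69.2 to 84.6 CPM in Abcc4-/- and 117 to 149 CPM in WT, whereas that of 18 neutrophil genes was 43520.5 to 45839 CPM in Abcc4-/- and 24909 to 32054 CPM in WT.

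Of the 10 subunit genes, Itga2b, Itga6 and Itgb7 fell and Itgb2 rose in Abcc4-/- (edgeR quasi-likelihood test, Benjamini-Hochberg adjusted p below 0.05). The 4 calls among 10 compare with 17.3% of all 16493 genes, of which 8.68% fell and 8.61% rose. On the deposited TPM (transcript abundance scaled by length and to a common total), the balance of calls over all genes was different. Of 18222 genes, limma on log2(TPM + 1) called 430 higher and 1119 lower, against 1420 higher and 1432 lower in the count test. The CPM of the genotypes did not overlap for 5 members, Itgam being the additional one, against 36.8% of all genes. The median log2 fold change of the 10 members was -0.07, that of all genes tested 0.00091. The members and the lists below were chosen with earlier results of these data known, so their counts are descriptions of these genes and not evidence about integrins as a class.

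**Figure D1:**
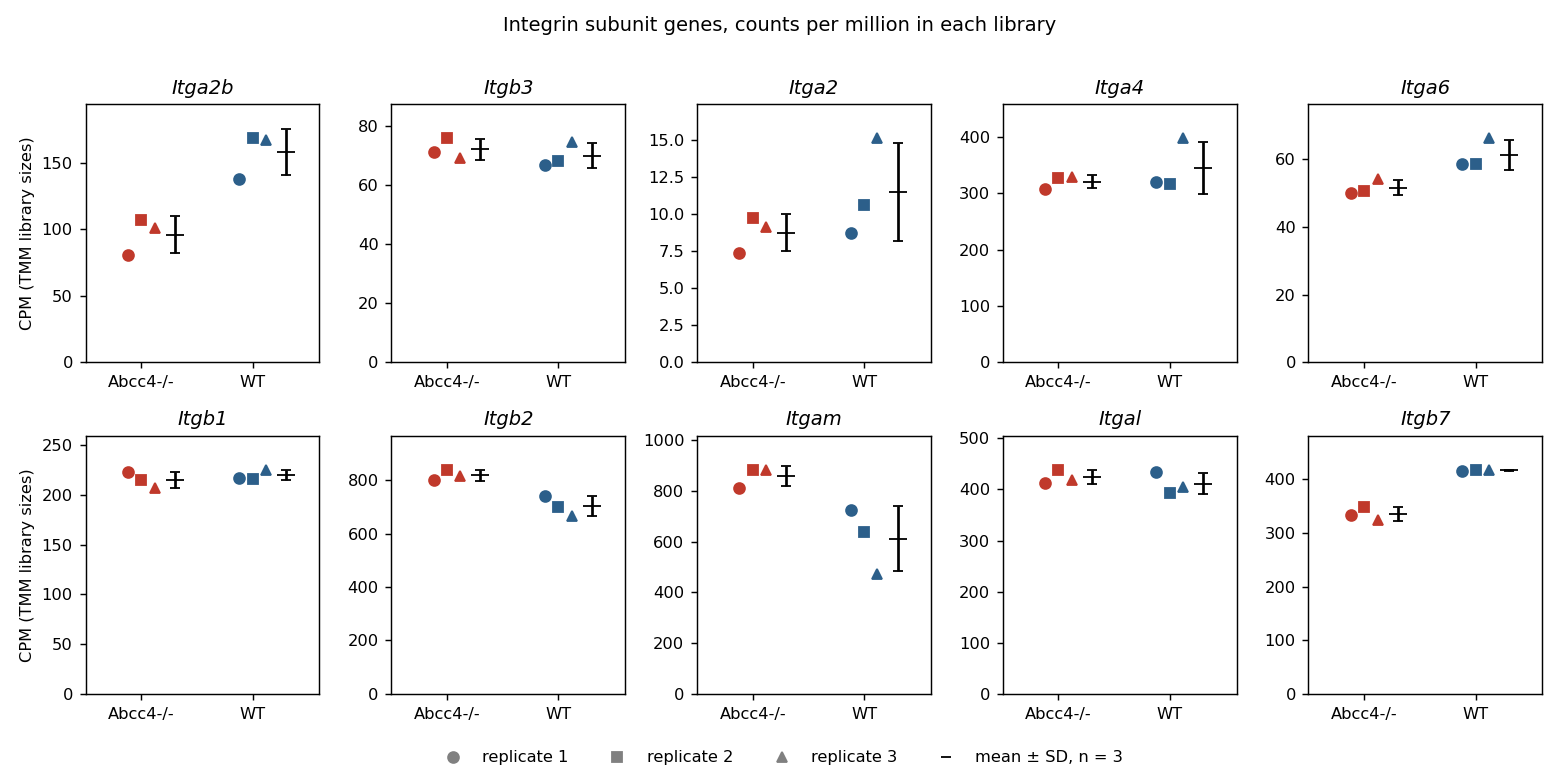
CPM of the 10 integrin subunit genes in each library (vertical axes start at 0), Abcc4-/- in red and WT in blue, with the replicate number as symbol and the mean ± SD in black (n = 3 each). The genotypes do not overlap for Itga2b, Itga6, Itgb2, Itgam and Itgb7, and Itgam lies between 812 and 883 CPM in Abcc4-/- and between 472 and 722 CPM in WT.

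The platelet integrin showed unequal changes in its subunit genes. Itga2b (ENSMUSG00000034664.13, minus strand of chromosome 11 in GRCm38, from 102453297 to 102470122) encodes the alpha subunit, which serves as the surface marker CD41 of the megakaryocyte lineage. It had 80.5, 107 and 101 CPM in Abcc4-/-, against 138, 169 and 167 CPM in WT. All 3 Abcc4-/- libraries lay below all 3 WT libraries. Itga2b fell 1.64-fold (log2 fold change -0.72, SE 0.12, 95% interval -1.01 to -0.42; edgeR, adjusted p = 0.0106), the largest decrease among the 10 members. In bulk samples, fewer cells of a type and less RNA per cell cannot be told apart. Itga2b lost its call without WT replicate 3 (edgeR, adjusted p = 0.0667), with no filter on low counts (0.0504) and in limma on log2(TPM + 1) with no filter (0.0658).

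Itgb3 (ENSMUSG00000020689.4, chromosome 11, positions 104608000 to 104670476 on the plus strand), the beta partner of Itga2b and also of Itgav, lies 2.14 Mb away on the same chromosome. It had 71.4, 76.0 and 69.1 CPM in Abcc4-/-, against 66.9, 68.2 and 74.8 CPM in WT. The ranges of the genotypes overlapped, and Itgb3 did not pass (log2 fold change 0.045, SE 0.059, 95% interval -0.083 to 0.17; edgeR, adjusted p = 0.651). Its direction turned on the TPM scales (-0.031 on log2(TPM + 1), where the median of all genes was -0.062). The lower end of the interval from the count test lies well above the whole interval of Itga2b.

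Within each library, the TPM of Itga2b relative to that of Itgb3 was lower in Abcc4-/-. The ratio was 2.68, 3.31 and 3.65 in Abcc4-/-, against 4.80, 5.83 and 5.42 in WT. The log2 ratio averaged 1.67 ± 0.23 in Abcc4-/- and 2.41 ± 0.14 in WT (SD, n = 3 each), a difference of -0.74. The genotypes did not overlap (two-sided exact permutation p = 0.1, the lower limit for 3 against 3, and 0.129 after Benjamini-Hochberg adjustment over 9 ratios). Itgav encodes the alpha partner of Itgb3 on many cells outside the platelet lineage. Of the summed TPM of Itga2b and Itgav, Itga2b made up 85.4% to 89.4% in Abcc4-/- and 92.1% to 93.6% in WT.

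Most of the other megakaryocyte genes listed fell in Abcc4-/-, as Itga2b did. Of the 16 megakaryocyte and platelet genes, 12 fell and 1 rose (81.2% called, against 17.3% of all genes). Their median log2 fold change was -0.63, and none of the 16 was at 0 in all libraries. The gene that rose was Ppbp, named after its values were seen (log2 fold change 0.56, SE 0.15, adjusted p = 0.0273 in edgeR). Gp6, Tubb1 and Clec1b were not called. Pf4, a chemokine of platelet granules, stood at 16.8 ± 1.37 CPM in Abcc4-/- and 30.5 ± 5.67 CPM in WT (SD, n = 3 each; edgeR, adjusted p = 0.0066). Vwf, the adhesive protein that bridges platelets to collagen, stood at 13.5 ± 2.29 CPM in Abcc4-/- and 32.2 ± 4.07 CPM in WT (adjusted p = 0.0020). Without Abcc4-/- replicate 1, 7 of the 16 were called, and without Abcc4-/- replicate 2, 8 were.

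A comparison chosen after these values were seen divided each gene by the summed CPM of the 16 genes in the same library. The log2 ratio of Itga2b to this sum was 0.22, 0.40 and 0.26 in Abcc4-/- and 0.24, 0.18 and 0.25 in WT, so that the genotypes overlapped and their means differed by 0.065. For Itgb3 the log2 ratio was 0.045, -0.092 and -0.29 in Abcc4-/-, against -0.80, -1.12 and -0.91 in WT, with every Abcc4-/- library above every WT library. Relative to the sum of the 16 genes, Itgb3 was higher in Abcc4-/- by 0.83 on the log2 scale. This difference largely restates the fall of the list, as Itgb3 itself changed little (log2 fold change 0.045). For Itga2 the log2 ratio was -3.23, -3.05 and -3.21 in Abcc4-/- and -3.74, -3.80 and -3.21 in WT, with overlap. None of these differences was tested, because the list had already been seen to fall.

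**Figure D2:**
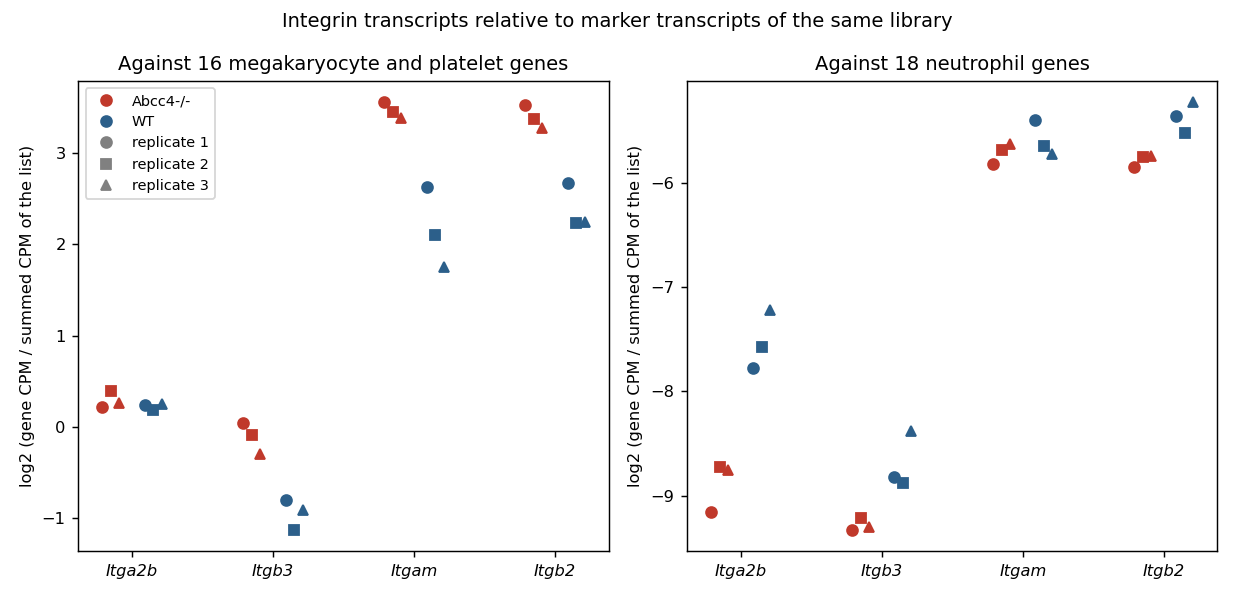
Log2 ratio of the CPM of Itga2b, Itgb3, Itgam and Itgb2 to the summed CPM of 16 megakaryocyte and platelet genes (left) and of 18 neutrophil genes (right) in each library, Abcc4-/- in red and WT in blue. Itga2b lies between 0.18 and 0.40 against the megakaryocyte genes over all 6 libraries, and Itgam between -5.82 and -5.39 against the neutrophil genes. Against the megakaryocyte genes, Itgb3 is higher in every Abcc4-/- library than in every WT library. Against the neutrophil genes, Itgb2 is lower in every Abcc4-/- library.

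Promoter sequence from the RefSeq promoter table (GRCm38.p6) was found for 6 of the 10 members. The 250 bases before the start of Itga2b and of Itgb7 are shown because these are the members with an entry that fell. Capitals mark the letters GGAAG or their reverse complement CTTCC, the core bound by ETS factors, a family that includes the megakaryocyte factor FLI1. The window of Itga2b is chr11:102469884-102470133 on the minus strand and lies largely within the gene as GENCODE draws it, where another transcript begins further upstream. The window of Itgb7 is chr15:102231936-102232185 on the minus strand.
Itga2b: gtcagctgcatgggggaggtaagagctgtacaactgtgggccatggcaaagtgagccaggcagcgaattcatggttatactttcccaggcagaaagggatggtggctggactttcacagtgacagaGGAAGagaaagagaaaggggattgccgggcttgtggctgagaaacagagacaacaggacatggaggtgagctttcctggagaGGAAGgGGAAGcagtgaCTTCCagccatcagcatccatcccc
Itgb7: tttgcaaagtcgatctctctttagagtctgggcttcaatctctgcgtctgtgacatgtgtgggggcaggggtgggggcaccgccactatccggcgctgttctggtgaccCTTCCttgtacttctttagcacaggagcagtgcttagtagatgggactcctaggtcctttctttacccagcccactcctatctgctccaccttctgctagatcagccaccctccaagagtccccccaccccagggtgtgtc
The Itga2b window held 4 matches and the Itgb7 window 1, and 64.1% of all 32851 promoter windows of this length held at least 1. Of the other members with an entry, none of them called, Itgb1 held 2, Itgam 1, and Itga4 and Itga2 0. GATAA, the core of GATA factor sites, and TGTGGT, that of RUNX factor sites, were searched on both strands as well. They were in neither window, against 22.6% and 14.0% of all windows. Among the other members with an entry, Itga4 held 1 TGTGGT match. These matches are letters in a window, not measured binding.

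Itga2 (ENSMUSG00000015533.9, chromosome 13, positions 114833081 to 114932100, minus strand) encodes the alpha subunit of the platelet collagen receptor, which pairs with the Itgb1 protein. It had 7.39, 9.78 and 9.16 CPM in Abcc4-/-, against 8.73, 10.6 and 15.2 CPM in WT. WT replicate 3 was the highest, and the other libraries of the genotypes overlapped. Itga2 did not pass (log2 fold change -0.39, SE 0.22, 95% interval -0.93 to 0.16; edgeR, adjusted p = 0.300). The interval is wide enough to hold a decrease as large as that of Itga2b as well as no change. It was the least abundant member, and without WT replicate 3 its log2 fold change was -0.14.

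Among the leukocyte integrin genes Itgb2, Itgam and Itgal, Itgb2, which encodes the beta subunit they share, rose. Itgb2 (ENSMUSG00000000290.13, chromosome 10, positions 77530252 to 77565708, plus strand) encodes the beta chain that leukocyte adhesion to endothelium depends on. It had 798, 839 and 816 CPM in Abcc4-/-, against 741, 698 and 666 CPM in WT, with no overlap. Itgb2 rose 1.17-fold (log2 fold change 0.22, SE 0.058; edgeR, adjusted p = 0.0232). The call was lost without Abcc4-/- replicate 2 or 3 or without WT replicate 2 (edgeR, adjusted p = 0.105, 0.0602 and 0.0622) and on each TPM scale (limma, adjusted p = 0.150 to 0.213).

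Itgam (ENSMUSG00000030786.18, chromosome 7, positions 128062640 to 128118491, plus strand) encodes CD11b, the alpha chain that neutrophils and monocytes carry with the Itgb2 protein and that binds complement fragments. It had 812, 883 and 881 CPM in Abcc4-/-, against 722, 639 and 472 CPM in WT. Every Abcc4-/- library was above every WT library, but the WT libraries were far apart, with a coefficient of variation of 20.9% in WT and 4.73% in Abcc4-/-. Itgam did not pass the main test (log2 fold change 0.49, SE 0.15, 95% interval 0.13 to 0.86; edgeR, adjusted p = 0.0768). It passed in DESeq2 (adjusted p = 0.0362), in limma-voom (0.0257), in edgeR without robust estimation (0.0274), and in edgeR without WT replicate 1 (0.0141) or WT replicate 3 (0.0085). The gene model Gm49368 overlaps Itgam on the same strand and can share its reads, and it was counted at 6.01 ± 0.892 CPM in Abcc4-/- and 5.16 ± 1.18 CPM in WT (SD, n = 3 each).

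Itgal (ENSMUSG00000030830.18, chromosome 7, positions 127296260 to 127335138, plus strand, 0.728 Mb from Itgam) encodes CD11a, the alpha chain of the integrin that lymphocytes and other leukocytes use to bind ICAM proteins. It had 414, 439 and 419 CPM in Abcc4-/-, against 435, 394 and 406 CPM in WT. The ranges overlapped, and Itgal did not pass (log2 fold change 0.044, SE 0.056, 95% interval -0.079 to 0.17; edgeR, adjusted p = 0.649). Its sign turned on log2(TPM + 1), to -0.012, where the median of all genes was -0.062.

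Transcript ratios between these genes were compared within each library, with exact tests that cannot pass 0.05. The TPM ratio of Itgam to Itgb2 was 0.608, 0.628 and 0.644 in Abcc4-/-, against 0.583, 0.547 and 0.413 in WT, and WT replicate 3 was the lowest. The log2 difference was 0.30, and 0.15 without WT replicate 3. The ratio of Itgal to Itgb2 was 0.291, 0.295 and 0.287 in Abcc4-/-, against 0.316, 0.320 and 0.323 in WT, a small difference of -0.14 on the log2 scale with tight replicates. For both ratios the genotypes did not overlap (exact permutation test, two-sided p = 0.1 each, the smallest possible; 0.129 adjusted over the 9 ratios). Among the alpha genes that pair with Itgb2 (Itgam, Itgal, Itgax and Itgad), Itgam took 64.3% to 65.5% of the summed TPM in Abcc4-/- and 51.9% to 61.2% in WT, and Itgal 29.2% to 30.8% in Abcc4-/- and 33.1% to 40.7% in WT.

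Most of the neutrophil genes listed rose in Abcc4-/-, as Itgb2 did. Of the 18 neutrophil genes, 11 rose and 1 fell (66.7% called, against 17.3% of all genes). Their median log2 fold change was 0.71, and none was at 0 in all libraries. The gene that fell was Mpo, named after its values were seen (log2 fold change -0.25, adjusted p = 0.035 in edgeR). Elane, Prtn3, Ctsg, Fcnb, Csf3r and Cebpe were not called. S100a9 and S100a8, the calcium-binding proteins that fill the neutrophil cytosol, had the highest levels, at 10339 ± 330.5 and 8421 ± 355 CPM in Abcc4-/- against 5995 ± 923 and 4646 ± 725 CPM in WT (SD, n = 3 each; edgeR, adjusted p = 0.00070 and 0.00054). WT replicate 3, the library with the least Itgam and Itgb2, also had the lowest neutrophil sum, 24909 CPM, against 30305 and 32054 CPM in the other WT libraries. Other libraries went the other way. Abcc4-/- replicate 1 had the least Itgam and Itgb2 of its genotype and the highest neutrophil sum, 45839 CPM. WT replicate 1 had the most Itgam and Itgb2 of its genotype, but WT replicate 2 the highest WT sum. The log2 ratio of Itgam to the neutrophil sum was -5.82, -5.68 and -5.63 in Abcc4-/- and -5.39, -5.65 and -5.72 in WT, with overlap. That of Itgb2 was -5.84, -5.75 and -5.74 in Abcc4-/- and -5.35, -5.52 and -5.23 in WT, lower in every Abcc4-/- library. Against the sum of 14 monocyte and macrophage genes, Itgam stood at -2.51, -2.27 and -2.25 in Abcc4-/- and -2.78, -2.75 and -3.24 in WT. Against the same sum, Itgb2 stood at -2.54, -2.34 and -2.36 in Abcc4-/- and -2.74, -2.62 and -2.75 in WT. Both were higher in every Abcc4-/- library than in every WT library. The part of neutrophil or monocyte RNA in the Itgb2 and Itgam values was not tested.

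Genes of other cell types were called as follows, against 17.3% of all genes, and their part in the integrin values was not tested. Not far above that share were monocyte and macrophage (21.4%), erythroid (22.2%), mast cell and basophil (25%) and dendritic cell genes (25%). The share was 75% for B cell, 71.4% for T and NK cell, 60% for stem and progenitor and 50% for eosinophil genes. Of 14 monocyte and macrophage genes, 3 fell and 0 rose (edgeR; 5 fell and 0 rose at an unadjusted p below 0.05), with sums of 4181 to 4630 CPM in Abcc4-/- and 4306 to 4946 CPM in WT. Ly6c2 and F13a1, the most abundant, were not called (0.081 and -0.082 as log2 fold change). B cell transcripts were higher: 9 of 12 genes rose and 0 fell (10 and 0 at an unadjusted p below 0.05), with sums of 1084 to 1209 CPM in Abcc4-/- and 549 to 786 CPM in WT. Cd79a and Cd79b, with the highest mean CPM over all 6 libraries, rose by 0.66 and 0.70 on the log2 scale. Of 14 T and NK cell genes, 9 rose and 1 fell, with sums of 156 to 177 CPM in Abcc4-/- and 142 to 159.7 CPM in WT. Of the pair with the highest mean CPM over all 6 libraries, Cd2 rose (log2 fold change 0.47) and Nkg7 did not pass (-0.13). The gene that fell was Gzmb, a granzyme of cytotoxic cells, named after its values were seen (log2 fold change -2.67, SE 0.38; edgeR, adjusted p = 0.0128).

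Of 10 stem and progenitor genes, 6 fell and 0 rose (edgeR; 8 and 0 at an unadjusted p below 0.05), with sums of 307 to 342 CPM in Abcc4-/- and 373 to 395 CPM in WT, and Cd34 and Kit were the most abundant of them (log2 fold change -0.18 and -0.29, both called). Of 6 eosinophil genes, 3 fell and 0 rose (3 and 0 unadjusted), with sums of 421 to 619 CPM in Abcc4-/- and 807 to 869.9 CPM in WT. Prg2 and Epx, with the highest mean CPM of these, fell (log2 fold change -0.62 and -0.80). Of 8 mast cell and basophil genes tested, 2 fell and 0 rose (5 and 0 unadjusted), and the most abundant, Prss34 and Mcpt8, did not pass (-0.23 and -0.21). Of 9 erythroid genes tested, 2 rose and 0 fell (3 and 0 unadjusted), and the most abundant, Hbb-bs and Hba-a2, were not called (-0.16 and -0.18). Of 8 dendritic cell genes, 2 fell and 0 rose (4 and 0 unadjusted), and the most abundant, Irf8 and Siglech, were not called (-0.0048 and 0.074). In none of these lists was a gene at 0 in all libraries.

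Among the integrin genes of progenitors and lymphocytes, Itgb7 and Itga6 fell while Itga4 and Itgb1 did not pass. Itgb7 (ENSMUSG00000001281.10, chromosome 15, positions 102215995 to 102231944, minus strand), the beta partner of Itga4 and Itgae on lymphocytes, mast cells and progenitors, had 333, 349 and 325 CPM in Abcc4-/-, against 415, 417 and 418 CPM in WT. The WT libraries were almost identical, with a coefficient of variation of 0.393%, and the genotypes did not overlap. Itgb7 fell 1.24-fold (log2 fold change -0.31, SE 0.051; edgeR, adjusted p = 0.0020). It was called in the count test, in each of the 13 other settings (adjusted p at most 0.0273) and without each library in turn (adjusted p at most 0.0123), and it was the member with the smallest adjusted p.

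Itga6 (ENSMUSG00000027111.15, chromosome 2, positions 71745616 to 71858416, plus strand) encodes the alpha chain of laminin receptors, CD49f, found on platelets and stem cells. It had 50.2, 50.7 and 54.0 CPM in Abcc4-/-, against 58.6, 58.6 and 66.2 CPM in WT, without overlap. Itga6 fell 1.18-fold (log2 fold change -0.24, SE 0.061; edgeR, adjusted p = 0.0174). The call was lost without Abcc4-/- replicate 1 or 2 (adjusted p = 0.0766 and 0.0758) and on each TPM scale (limma, adjusted p = 0.0605 to 0.0992).

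Itga4 (ENSMUSG00000027009.18, chromosome 2, positions 79255426 to 79333123, plus strand) encodes the alpha chain that binds VCAM1 and fibronectin and holds progenitors in the marrow. It had 307, 326 and 328 CPM in Abcc4-/-, against 320.5, 317 and 398 CPM in WT. Apart from the high WT replicate 3 the genotypes overlapped (log2 fold change -0.11, SE 0.084, 95% interval -0.29 to 0.081; edgeR, adjusted p = 0.435). Without WT replicate 3 the sign turned, to 0.0098.

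Itgb1 (ENSMUSG00000025809.15, chromosome 8, positions 128685654 to 128733200, plus strand) encodes the beta chain shared by the largest number of alpha subunits. It had 223, 215 and 207 CPM in Abcc4-/-, against 217, 216 and 225 CPM in WT. The ranges overlapped (log2 fold change -0.032, SE 0.051, 95% interval -0.14 to 0.079; edgeR, adjusted p = 0.720). The interval leaves out a change as large as that of Itgb7 or Itga2b.

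**Figure D3:**
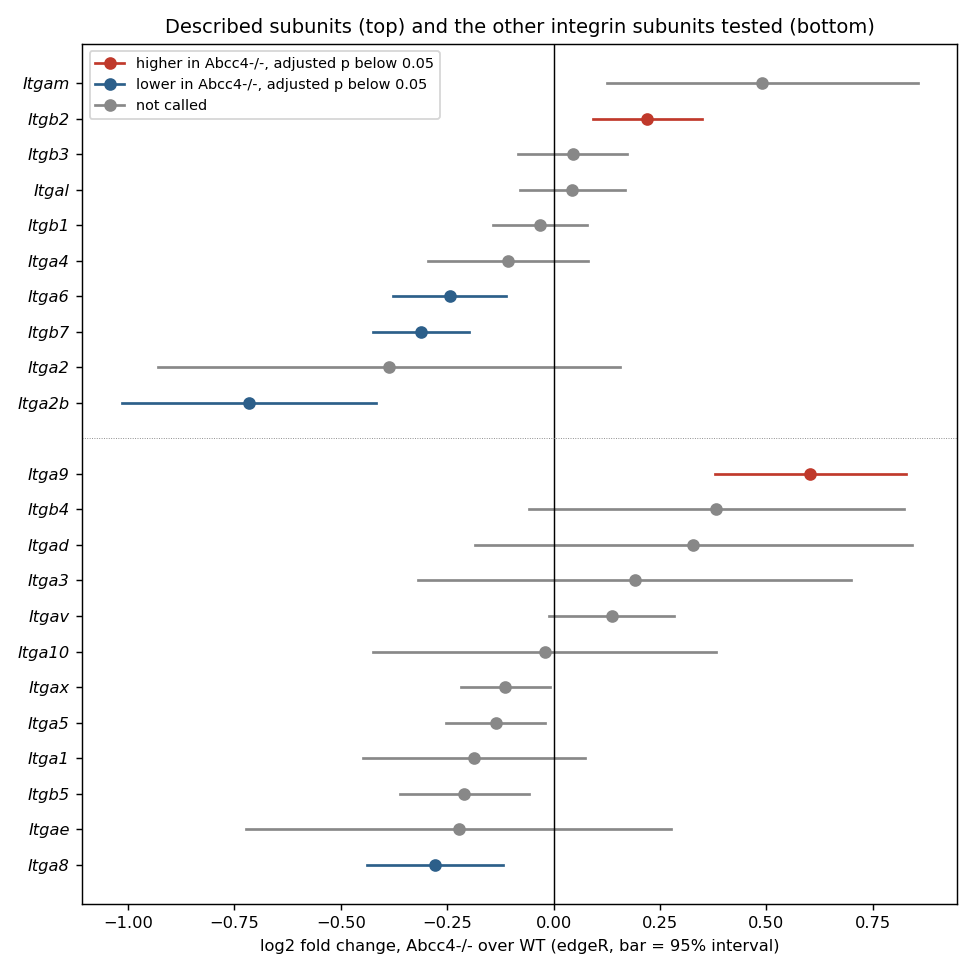
Log2 fold change, Abcc4-/- over WT, with its 95% interval from edgeR for the 10 members (top) and the 12 other integrin subunit genes tested (bottom). Itga2b lies lowest at -0.72, and the estimate for Itgam at 0.49 is the highest of the members without passing the adjusted threshold.

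Ratios of TPM within a library were also compared for these subunit genes, and none could pass 0.05. Relative to Itgb1, Itgb7 stood at a TPM ratio of 2.47, 2.87 and 2.63 in Abcc4-/- and 3.15, 3.39 and 3.06 in WT, and Itga6 at 0.254, 0.270 and 0.285 in Abcc4-/- and 0.292, 0.310 and 0.320 in WT. For both, the genotypes did not overlap (two-sided exact permutation p = 0.1, the lower limit; 0.129 adjusted over the 9 ratios). The ratio of Itga2 to Itgb1 was 0.0177, 0.0240 and 0.0232 in Abcc4-/- and 0.0244, 0.0258 and 0.0341 in WT, with p at the same limit. This separation depended on the scale: with a pseudocount of 1 the log2 difference was -0.23 (exact p = 0.2), against -0.38 as reported here, and on log2 CPM it was -0.33 (exact p = 0.4). Without Abcc4-/- replicate 1 it was -0.24, and without WT replicate 3 -0.23 (exact p = 0.3 each). The ratio of Itga4 to Itgb1 overlapped between the genotypes (exact p = 0.6), as did that of Itga4 to Itgb7 (exact p = 0.3). The ratio of Itga2b to Itgb2, the platelet against the leukocyte gene, was 0.114, 0.141 and 0.146 in Abcc4-/- and 0.203, 0.270 and 0.278 in WT, the widest difference of the 9 ratios at -0.90 on the log2 scale.

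**Figure D4:**
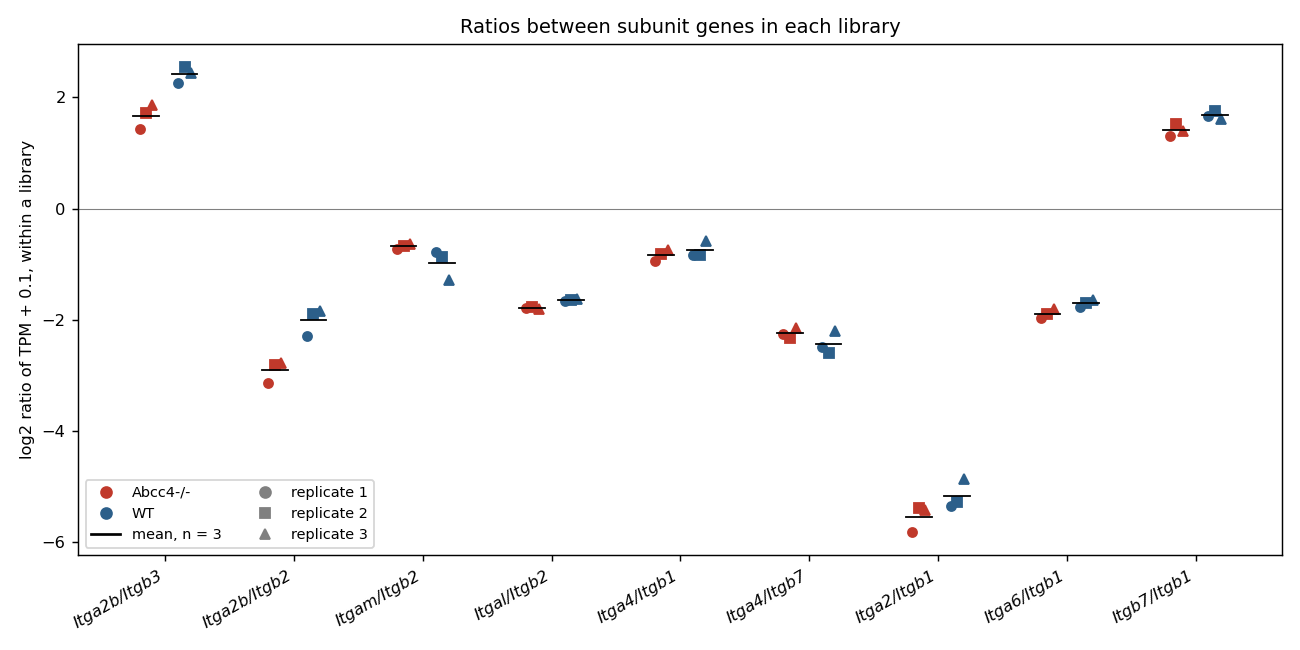
Log2 ratio of the deposited TPM (with 0.1 added) between subunit genes in each library, Abcc4-/- in red and WT in blue, with the mean of each genotype as a black line (n = 3 each). The ratios of Itga2b to Itgb3 and to Itgb2 differ most, by -0.74 and -0.90, and those of Itga4 to Itgb1 and to Itgb7 overlap.

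In levels per transcript length, which allow genes to be set against each other, Itgb2 was highest in both genotypes, at 402 TPM in Abcc4-/- and 369 TPM in WT. In Abcc4-/- it was followed by Itgam (252 TPM), Itgb7 (214 TPM), Itgal (117 TPM), Itgb1 (80.7 TPM), Itga2b (53.9 TPM), Itga4 (45.1 TPM), Itga6 (21.7 TPM), Itgb3 (16.7 TPM) and Itga2 (1.64 TPM). In WT the order after Itgb2 was Itgb7 (280.2 TPM), Itgam (189.7 TPM), Itgal (118 TPM), Itga2b (91.9 TPM), Itgb1 (87.6 TPM), Itga4 (52.3 TPM), Itga6 (26.9 TPM), Itgb3 (17.1 TPM) and Itga2 (2.38 TPM). Itgam and Itgb7 therefore changed places between the genotypes, as did Itga2b and Itgb1. Neighbours whose libraries overlapped were Itga2b and Itga4 in Abcc4-/- and Itga2b and Itgb1 in WT, and the ranges of all other neighbours were apart.

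**Figure D5:**
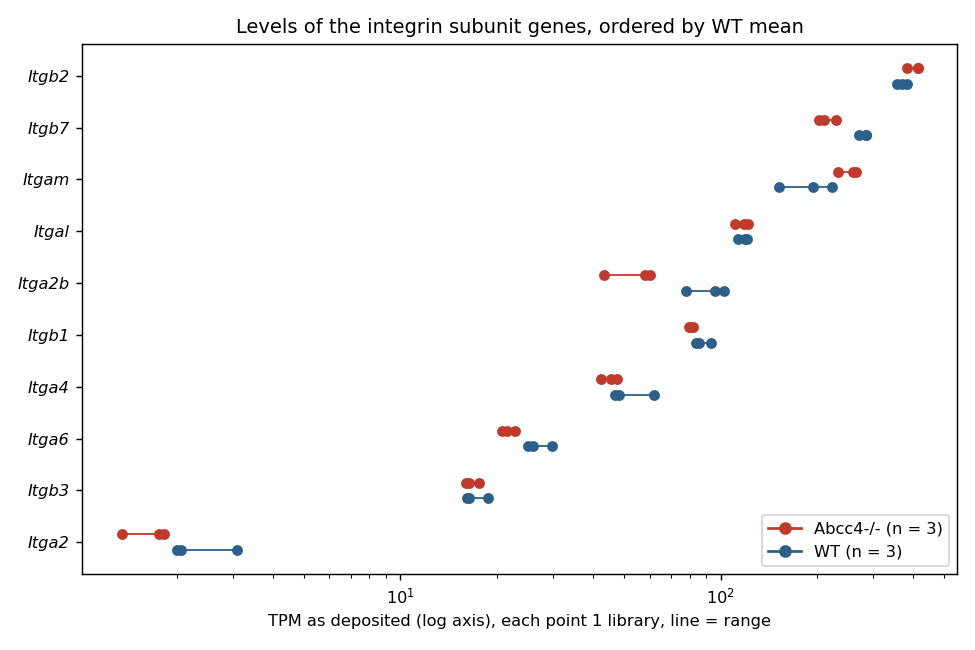
Deposited TPM of the 10 members on a log axis, each point 1 library and each line the range of the 3 libraries of a genotype (Abcc4-/- in red above WT in blue). Itgb2 leads with 382 to 412 TPM in Abcc4-/- and 355 to 383 TPM in WT, and Itga2 lies below 4 TPM throughout.

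Replicates differed from each other in a pattern that touched several members. WT replicate 3 had the highest WT value of Itgb3, Itga2, Itga4, Itga6, Itgb1 and Itgb7 and the lowest of Itgb2 and Itgam. Abcc4-/- replicate 1 had the lowest Abcc4-/- value of Itga2b, Itga2, Itga4, Itga6, Itgb2, Itgam and Itgal. The coefficient of variation over the Abcc4-/- libraries lay between 2.51% for Itgb2 and 14.3% for Itga2b. In WT it reached 28.7% for Itga2.

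Outside the 10 members, 16 further integrin subunit genes were in the table, and 12 of them passed the filter. Itga9, an alpha chain that binds tenascin and osteopontin, rose (5.78 ± 0.398 CPM in Abcc4-/- and 3.80 ± 0.193 CPM in WT, SD, n = 3 each; log2 fold change 0.60, SE 0.10; edgeR, adjusted p = 0.0024). Itga8, an RGD-binding partner of the Itgb1 protein, fell (8.62 ± 0.156 CPM in Abcc4-/- and 10.4 ± 0.457 CPM in WT; log2 fold change -0.28, SE 0.073; edgeR, adjusted p = 0.0219). These 2 of 12 genes are 16.7%, close to the 17.3% of all genes, and the list had a median log2 fold change of -0.07. Itga8 lost its call without Abcc4-/- replicate 2 or 3 or without WT replicate 1; the count was then 1 higher and 0 lower. The genes below the filter, Itga7, Itga11, Itgb6 and Itgb8, had between 0 and 15 counts in a library.

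The genes listed for integrin activation, which include adaptors and genes of integrin signalling, showed few differences. Of 27 activation and adaptor genes tested, 3 rose and 0 fell (edgeR), 11.1% against 17.3% of all genes, with a median log2 fold change of 0.040. At an unadjusted p below 0.05, 5 rose and 3 fell. DESeq2, run without the count filter on 31 listed genes, called 3 higher and 1 lower. Cib1, a calcium-binding protein known to bind the tail of the Itga2b protein, rose (log2 fold change 0.21, SE 0.054; edgeR, adjusted p = 0.0188). Syk, a kinase that signals downstream of integrins, rose (0.19, SE 0.054; adjusted p = 0.0339), as did the adaptor gene Skap2 (0.15, SE 0.047; adjusted p = 0.0465). Tln1 and Fermt3, which encode the talin and kindlin that bind beta chains and were picked after their values were seen, did not pass (log2 fold change -0.052 and -0.065; edgeR, adjusted p = 0.641 and 0.509). Without Abcc4-/- replicate 1 or 2, 0 of the 27 were called, and without Abcc4-/- replicate 3 or WT replicate 1, 1 was. Without WT replicate 2, 2 were called lower and 0 higher, so all 3 of these rises were lost.

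Among the ligands that integrins bind, those that passed were lower. Of 25 genes tested, 5 fell and 0 rose (edgeR), 20.0% against 17.3% of all genes, with a median log2 fold change of -0.28. At an unadjusted p below 0.05, 5 fell and 1 rose. DESeq2, run without the count filter on 30 listed genes, called 4 lower and 1 higher. Thbs1, the platelet granule and matrix protein thrombospondin, stood at 126 ± 16.8 CPM in Abcc4-/- and 671 ± 193 CPM in WT (log2 fold change -2.41, SE 0.25; edgeR, adjusted p = 0.0054). Vwf, given above, fell by 1.25 on the log2 scale. Spp1, which encodes osteopontin, fell by 0.37 (SE 0.10; adjusted p = 0.0271). The other genes that fell, Fn1 for fibronectin (-0.35) and F11r for the junctional protein JAM-A (-0.46), were named after their values were seen.

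The genes of fibrinogen, the ligand of the platelet integrin and a liver product, were at or near 0: Fga and Fgg had 0 counts in all 6 libraries and Fgb at most 1 count in a library. Ligand calls numbered 3 without Abcc4-/- replicate 1, 2 without Abcc4-/- replicate 2, 2 without WT replicate 1 and 3 without WT replicate 3.

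As a last description, 11108 genes whose log2 CPM averaged 1 or more were ranked by the Pearson correlation of their log2 CPM with that of a member over the 6 libraries. Depth and genotype differ together over these libraries, as every Abcc4-/- library was deeper than every WT library. The genes most like Itga2b were Map3k4 (r = 0.998), Robo3 (0.996), Meis1 (0.996), Gpatch3 (0.994) and Plekhg5 (0.993). Of these, Meis1, a homeodomain factor of stem cells and megakaryocytes, averaged 15.9 CPM in Abcc4-/- and 24.6 CPM in WT (log2 fold change -0.63; edgeR, adjusted p = 0.0012). Map3k4 differed far less in size between the genotypes (log2 fold change -0.10, adjusted p = 0.169), which a correlation does not show. The genes most like Itgb3 were Phf2 (r = 0.980), Entpd7 (0.978), Prdm9 (0.975), Tgfbr2 (0.949) and Zfp317 (0.938), all with log2 fold changes between 0.028 and 0.070.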

How the data were processed

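RNA from 3 Abcc4-/- and 3 WT samples was sequenced as stranded, paired-end mRNA libraries, per the labels' protocols. STAR 2.7, RSEM 1.3.1 and the mm10 build were used, per the submitters' processing notes, which name no annotation release. The authors deposited expected counts per gene, not normalized, and TPM, scaled within each sample. The 92 spike-in entries were left out. Genotype labels gave the groups, and sample titles the replicate numbers. Positions came from GENCODE M21 (GRCm38), which matched 55180 of 55573 genes by versioned identifier.

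The deposited expected counts were rounded and tested with edgeR 4.0.16 (R 4.3.3): filterByExpr, TMM, robust quasi-likelihood, Benjamini-Hochberg adjustment over 16493 genes, calls below 0.05. SE came from the fold change and its F statistic. CPM used TMM library sizes, and log2 CPM a prior count of 2. Ratios were taken on log2 TPM with a pseudocount of 0.1 and compared by exact permutation. The test was checked on simulated data. Alternatives used DESeq2 1.42.0, limma 3.58.1, other scalings, filters, thinned depth, log2 TPM with 1 or 0.1 added (low genes then show too small a change) and leaving out libraries. One listed erythroid gene was not matched.

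Members and lists were chosen with earlier results of these data known. By rule, the text names all members, called integrin subunits, up to 3 called pathway genes in each direction, the 2 most abundant markers of a cell type, and the 5 genes most like Itga2b and Itgb3.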

Additional observations from a re-analysis of the deposited data

How the results depend on the processing

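On the deposited TPM, limma called 2 members on log2(TPM + 1), 2 on log2(TPM + 0.1) and 1 on log2(TPM + 1) with no filter, against 4 in the count test. In the same order it called 1, 1 and 0 other integrin subunits (2 in the count test), 1, 1 and 1 activation genes (3), 2, 2 and 2 ligands (5), 8, 8 and 3 megakaryocyte genes (13) and 1549, 1572 and 876 of all genes (2852). The genes tested on these scales numbered 18222, 18222 and 26648, against 16493 in the count test. On these scales Itga6 stood at -0.30, -0.31 and -0.30 and Itgb2 at 0.12, 0.12 and 0.12, and neither passed. The signs of Itgb3 (-0.031, -0.032 and -0.031) and Itgal (-0.012 each) were reversed. The median log2 fold change of all genes also moved, to -0.062, -0.081 and -0.019, against 0.00091 in the count test. Itga2b, at -0.76 on unfiltered log2(TPM + 1) and -0.71 with no count filter, did not pass there. Itgam passed at 0.49 in DESeq2, 0.49 in edgeR without robust estimation and 0.51 in limma-voom. Without a count filter 4 of 16 other subunits were called, and after thinning to the smallest library 3 ligands. The causes were not tested.

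The labels do not say whether the numbers in the titles pair the samples. Over all genes tested, deviations from the genotype mean correlated at -0.046, -0.026 and -0.014 between samples with the same number. The highest correlation, 0.085, was between different numbers. With 3 samples a genotype, these values cannot decide whether a pairing exists. Itga2b was lowest in replicate 1 and highest in replicate 2 in both genotypes, and Itga6 lowest in replicate 1 and highest in replicate 3. No other member had both extremes at the same numbers. With the replicate block the count of members was 4, of other subunits 4, of ligands 8 and of all genes 3157. The adjusted p of Itga2b was then 4.8e-06 (edgeR), against 0.0106 in the main test, and that of Itgam 0.167, against 0.0768.

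Leaving out each library in turn gave 2 to 5 members, 1 to 2 other subunits, 0 to 2 activation genes, 2 to 5 ligands, 7 to 12 megakaryocyte genes and 1760 to 2415 of all genes. The log2 fold change ranged from -0.80 to -0.60 for Itga2b, -0.28 to -0.18 for Itga6, 0.19 to 0.26 for Itgb2, 0.34 to 0.63 for Itgam and -0.16 to 0.0098 for Itga4. With 3 samples a genotype, the exact tests of ratios cannot pass 0.05, so they say nothing of stability; their directions were the same with a pseudocount of 1, on log2 CPM and without each library, although for Itga2 to Itgb1 the genotypes overlapped on both of these scales.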
